A study of Homo sapiens with 4 samples.

Results

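The 7 genes of ketone body synthesis and fatty acid import were followed across hepatic cancer stem cells (HCSCs) and the hepatocellular carcinoma (HCC) cells they were grown from. ACAT1, BDH1, BDH2 and OXCT1 encode enzymes that make or use ketone bodies, CPT1A and CPT2 encode the carnitine palmitoyltransferases of the mitochondrial membranes, and PPARA encodes a nuclear receptor that controls many genes of fatty acid use. Their rows were found by symbol, and they were 7 of the 16370 genes listed in the files. All 7 had a row in the Huh7 pair and 6 had a row in the Hep3B pair. OXCT1 had no row in the Hep3B pair, and no change within that pair was computed for it. The files of each pair held only genes with at least 1 read count in that pair.

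RNA sequencing covered 4 cultures of human hepatoma cells, with 1 library each. The HCC group held the hepatoma lines Hep3B and Huh7, both long established in culture. The HCSC group held Hep3B-C, a stem-like culture derived from Hep3B, and Huh7-C, derived likewise from Huh7. No drug, allele or time point separated the cultures in the labels. Each HCSC culture was compared with its own parental line, and a pair below means those 2 libraries. The 2 samples of a group came from different parental lines, so they were not replicates of 1 culture. Differences between 2 libraries were therefore tested against counting error only, and variation between cultures was not measured.

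Fatty acids enter mitochondria as carnitine esters. CPT1A, the liver form of the outer membrane enzyme, makes the ester in the step that sets the pace of entry, and CPT2 turns the ester back into acyl-CoA inside. Beta-oxidation then yields acetyl-CoA, which the mitochondrial thiolase ACAT1 can join into acetoacetyl-CoA on the way to ketone bodies. BDH1 converts acetoacetate and beta-hydroxybutyrate into each other in mitochondria, and BDH2 is annotated with the same kind of activity. OXCT1 activates acetoacetate for use as fuel and is known for its low level in normal liver. In the annotation given in the files, the mitochondrion was named for 6 of the 7 genes, PPARA being the exception, and fatty acid beta-oxidation was named for 3 (BDH2, CPT1A and CPT2).

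The libraries held between 2896418 (Hep3B) and 4641927 (Hep3B-C) gene counts. The paper listed more total RNA reads for Hep3B than for Hep3B-C, so gene counts did not follow total reads in that pair. The reason was not tested. Levels are given as counts per 1000000 gene counts (CPM), and as CPM per 1000 bases of gene length (RPKM) where genes are compared with each other. A gene with 3 counts stood between 0.646 and 1.04 CPM, which was taken as the lowest level a library could show. All 12 hepatocyte markers were listed in both pairs. Their summed level went from 62426 to 73229 CPM in the Hep3B pair and from 51499 to 27336 CPM in the Huh7 pair. SERPINA1 alone went from 10113 to 26906 CPM in the Hep3B pair and from 40517 to 17284 CPM in the Huh7 pair. Single markers went both ways, with 7 of 12 higher in Hep3B-C and 4 of 12 higher in Huh7-C than in the parental line. Among these markers AFP, which Huh7 cells are known to secrete, had only 26 counts in Huh7 and 12 in Huh7-C, against 16175 in Hep3B and 4201 in Hep3B-C. The stromal, endothelial and leukocyte markers DCN, CDH5 and PTPRC had no row in either pair.

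Parts of the promoters of BDH1, BDH2 and CPT1A are shown because these genes carry the contrasts described next. All 7 genes matched the RefSeq promoter set (GRCh38.p14), with 11 start sites between them. Each stretch below is the longest run outside the exons of the gene in GENCODE release 29 within the 250 bases upstream of a RefSeq start. The stretches do not reach those starts. They lie on the minus strand and are written 5′ to 3′. Capitals mark CG dinucleotides. For BDH1 the inner of the 2 starts is shown (chr3:197556049-197556218), for BDH2 chr4:103099884-103100084, and for CPT1A chr11:68844411-68844527.
BDH1: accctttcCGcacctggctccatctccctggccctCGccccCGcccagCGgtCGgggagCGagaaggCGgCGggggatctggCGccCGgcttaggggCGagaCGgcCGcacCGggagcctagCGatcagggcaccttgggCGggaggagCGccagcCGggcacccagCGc
BDH2: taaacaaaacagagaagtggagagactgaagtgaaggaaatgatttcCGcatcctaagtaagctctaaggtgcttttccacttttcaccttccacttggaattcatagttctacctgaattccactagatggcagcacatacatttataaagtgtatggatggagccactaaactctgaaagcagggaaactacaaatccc
CPT1A: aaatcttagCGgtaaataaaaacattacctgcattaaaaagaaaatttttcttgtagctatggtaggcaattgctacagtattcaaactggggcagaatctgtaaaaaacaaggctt
The BDH1 stretch held 19 CG dinucleotides in 170 bases and was 75.9% G or C. The BDH2 stretch held 1 in 201 bases at 40.3%, and the CPT1A stretch held 1 in 117 bases at 32.5%. Over whole windows of 250 bases upstream, the inner BDH1 start had 77.6% G or C and the outer one 45.6%. The whole BDH2 window had 40.8% with 2 CG dinucleotides, and that of CPT1A had 44.4% with 7. The medians of 35116 promoters were 58% and 11. The files did not tell which start the reads came from. The consensus that PPAR receptors read with RXR, a direct repeat of AGGTCA with 1 base between its copies, was searched on both strands in the 250 bases before each of the 11 starts. It was found in none of them and in 0.0171% of all promoters, and the hexamer AGGTCA by itself, which the repeat contains, was also found in none of them and in 12.1% of all promoters.

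BDH1 moved in opposite directions in the 2 HCSC lines. This gene, on chromosome 3 from 197509783 to 197573323 (minus strand, GRCh38), had 16 counts in Hep3B and 78 in Hep3B-C, or 5.52 and 16.8 CPM. In the Huh7 pair it had 38 counts in Huh7 and 13 in Huh7-C, or 8.37 and 2.9997 CPM. Hep3B-C thus held the highest level and Huh7-C the lowest. BDH1 was up-regulated 2.97-fold in Hep3B-C, a log2 fold-change of 1.57 (SE 0.39, FDR 2.61e-05 in the Audic-Claverie test). In Huh7-C it was down-regulated 2.72-fold, a log2 fold-change of -1.45 (SE 0.46, FDR 0.00311). The 95% Poisson intervals of the levels overlapped between Huh7-C and Hep3B and between Hep3B and Huh7, but not between Huh7 and Hep3B-C.

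BDH2 was highest in Hep3B and low in the other 3 libraries. Its gene lies on chromosome 4 from 103079435 to 103099883 (minus strand). It had 71 counts in Hep3B and 34 in Hep3B-C, whose library held more gene counts, or 24.5 and 7.32 CPM. Huh7 had 36 and Huh7-C 23, or 7.93 and 5.31 CPM. The intervals of Huh7-C, Hep3B-C and Huh7 overlapped their neighbours, and that of Hep3B stood apart. BDH2 was down-regulated 3.32-fold in Hep3B-C, with a log2 fold-change of -1.73 (SE 0.30, FDR 4.58e-09), a call that was lost at -0.31 with the GC content and length trends removed. For Huh7-C its log2 fold-change of -0.57 (SE 0.38, FDR 0.27) was not called, with a 95% interval from -1.40 to 0.21.

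The ratio of BDH1 to BDH2 within a library does not depend on the library total. Per length, BDH1 stood at 0.186 of BDH2 in Hep3B (95% interval 0.101 to 0.322) and at 1.89 times BDH2 in Hep3B-C (1.25 to 2.92). In Huh7 the ratio was 0.869 (0.536 to 1.41) and in Huh7-C 0.465 (0.217 to 0.958). The intervals of Hep3B and Hep3B-C did not overlap, while those of Huh7 and Huh7-C did. Of the genes of the set listed in the Hep3B pair, BDH1 had the highest GC content and BDH2 the lowest. Changes in that pair rose with GC content, as described further on. On the log2 scale the ratio rose by 3.30 from Hep3B to Hep3B-C (SE 0.49), and by 1.78 with the GC content and length trends removed, which would put the Hep3B-C ratio at 0.636, so that the order of the genes would not reverse.

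**Figure D1:**
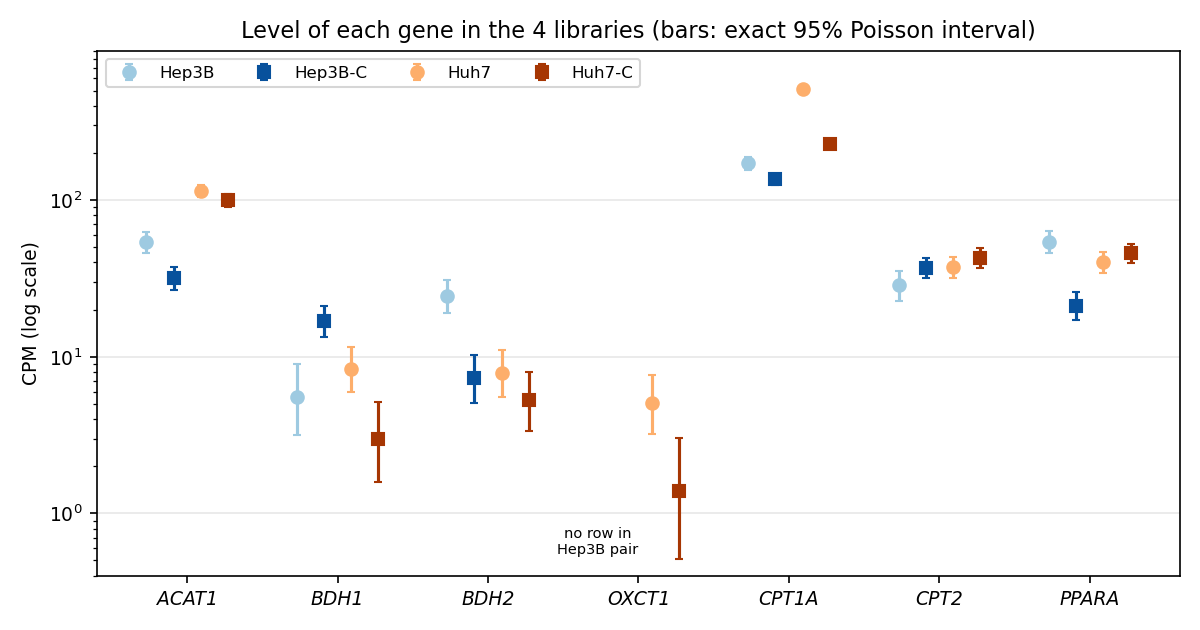
Level of each of the 7 genes in CPM (log axis) in the 4 libraries, with HCC lines as circles, HCSC lines as squares and exact 95% Poisson intervals as bars. CPT1A was highest in Huh7 (511.3 CPM), BDH1 was highest in Hep3B-C (16.8 CPM), and the 4 values of CPT2 lay between 28.7 and 42.9 CPM.

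ACAT1 was the most abundant per length of the ketone enzymes of the set (ACAT1, BDH1, BDH2 and OXCT1). The gene lies on chromosome 11 from 108121516 to 108147776 (plus strand). Hep3B had 156 counts (53.9 CPM), Hep3B-C 147 (31.7 CPM), Huh7 517 (113.9 CPM) and Huh7-C 434 (100.1 CPM). Both libraries of the Huh7 pair thus lay above both of the Hep3B pair. Its log2 fold-change was -0.77 (SE 0.17, FDR 9.42e-06) for Hep3B-C and -0.19 (SE 0.09, FDR 0.117) for Huh7-C, and neither reached the fold needed for a call.

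OXCT1 was the least abundant of the 7 genes per length in the Huh7 pair and could be compared in that pair only. The gene lies on chromosome 5 from 41730065 to 41870519 (minus strand). It had 23 counts in Huh7 and 6 in Huh7-C, or 5.07 and 1.38 CPM, and was down-regulated 3.45-fold in Huh7-C (log2 fold-change -1.79, SE 0.64, FDR 0.00811). With 6 counts in Huh7-C the 95% interval of the log2 fold-change ran from -3.46 to -0.54.

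CPT1A was the most abundant gene of the set per length in 3 of the 4 libraries. Its gene spans chromosome 11 from 68754620 to 68844410 (minus strand). Hep3B had 497 counts (171.6 CPM), Hep3B-C 632 (136.2 CPM), Huh7 2320 (511.3 CPM) and Huh7-C 986 (227.5 CPM). Huh7 stood far above the other 3 libraries, and none of the 4 intervals overlapped. CPT1A was down-regulated 2.25-fold in Huh7-C (log2 fold-change -1.17, SE 0.05, FDR 2.78e-107). In Hep3B-C the log2 fold-change was -0.33 (SE 0.09, FDR 0.000255), which fell short of the fold threshold and turned to 0.15 with TMM library sizes.

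CPT2, the inner membrane partner of CPT1A, was the steadiest gene of the set by CPM. It lies on chromosome 1 from 53196429 to 53214197 (plus strand). Counts were 83 for Hep3B (28.7 CPM), 172 for Hep3B-C (37.1 CPM), 170 for Huh7 (37.5 CPM) and 186 for Huh7-C (42.9 CPM). The CPM intervals of neighbouring libraries overlapped throughout, and the highest level was 1.498 times the lowest. Those of the lowest and highest library did not overlap, ending at 35.5 CPM for Hep3B and starting at 37.0 CPM for Huh7-C. Its log2 fold-change was 0.37 in Hep3B-C (95% interval -0.02 to 0.77, FDR 0.0899) and 0.20 in Huh7-C (-0.11 to 0.50, FDR 0.40), so neither was called. In Hep3B-C it rose to 0.85 with TMM library sizes, further from 0 than CPT1A (0.15) and ACAT1 (-0.28), and was not called. With GC content and length trends removed it stood there at 0.66.

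The balance of the 2 carnitine palmitoyltransferases was compared per length. CPT1A stood at 3.53 times CPT2 in Hep3B (95% interval 2.79 to 4.51) and at 2.16 times in Hep3B-C (1.83 to 2.58). For Huh7 it was 8.04 times (6.88 to 9.45) and for Huh7-C 3.12 times (2.67 to 3.67). The intervals within each pair did not overlap. In the Huh7 pair the ratio fell by 1.36 on the log2 scale (SE 0.16), and by 1.55 with GC content and length trends removed. In the Hep3B pair the log2 change of -0.70 (SE 0.21) was not larger than counting error with both trends removed (-0.16, 95% interval -0.57 to 0.26) or with the length trend removed (-0.05). Against ACAT1 the ratio of CPT1A was 1.29 in Hep3B (1.08 to 1.56), 1.74 in Hep3B-C (1.46 to 2.10) and 1.82 in Huh7 (1.65 to 2.01). In Huh7-C it was 0.922 (0.823 to 1.03), where ACAT1, at 47.0 RPKM, was level with CPT1A, at 43.3 RPKM, within counting error.

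**Figure D2:**
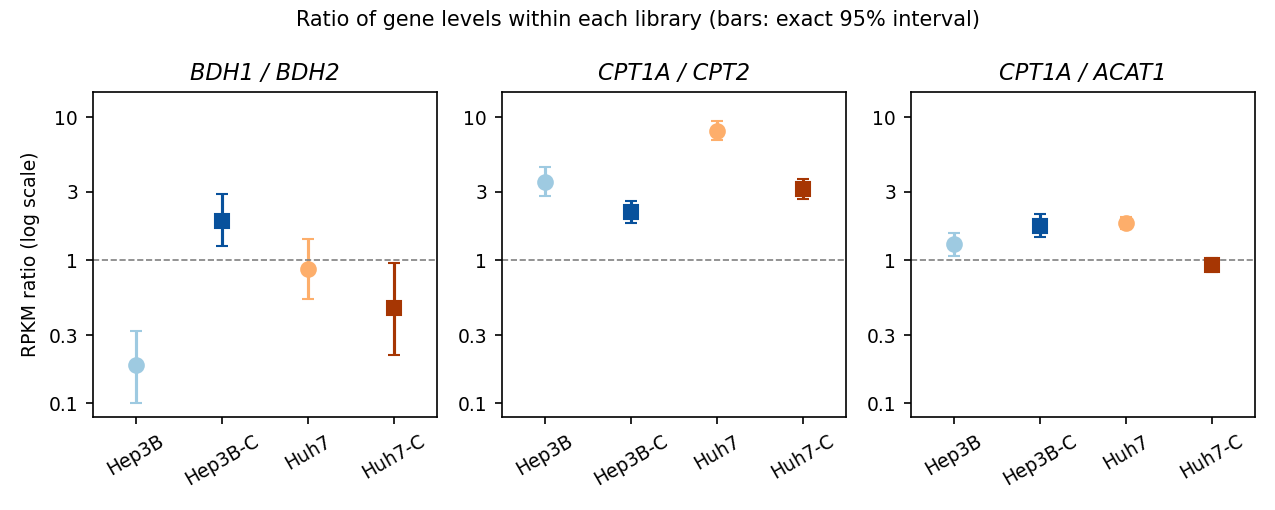
RPKM ratios of BDH1 to BDH2, CPT1A to CPT2 and CPT1A to ACAT1 within each library (log axis), with exact 95% intervals as bars and a dashed line at 1. BDH1 lay below BDH2 in Hep3B (0.186) and above it in Hep3B-C (1.89), or at 0.636 there with GC content and length trends removed, and CPT1A to CPT2 was highest in Huh7 (8.04).

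PPARA was called in Hep3B-C and not in Huh7-C. The gene lies on chromosome 22 from 46150521 to 46243756 (plus strand). Counts were 157 for Hep3B (54.2 CPM), 98 for Hep3B-C (21.1 CPM), 182 for Huh7 (40.1 CPM) and 198 for Huh7-C (45.7 CPM). Hep3B-C was the low library, and the intervals of the other 3 overlapped in order of level. PPARA was down-regulated 2.56-fold in Hep3B-C (log2 fold-change -1.36, SE 0.19, FDR 3.25e-13), a call that was lost with TMM library sizes (log2 fold-change -0.87). The direction turned with the GC content and length trends removed (0.32) and with the length trend alone removed (0.39). In Huh7-C its log2 fold-change was 0.19 (95% interval -0.11 to 0.49, FDR 0.406).

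In all, 3 of 6 genes were called in Hep3B-C, with BDH1 up-regulated and BDH2 and PPARA down-regulated. Over all 15480 genes of that pair 43.6% were called, 13.2% up- and 30.4% down-regulated, so the share among these 6 was near the background. With TMM library sizes, which raised every log2 fold-change of the pair by 0.48, the 6 genes gave 1 up- and 1 down-regulated call, and all genes gave 19.7% and 20.2%. In Huh7-C 3 of 7 genes were called (BDH1, OXCT1 and CPT1A), all down-regulated, where 8.33% of 14807 genes were called, 4.19% up- and 4.15% down-regulated. The median log2 fold-change of the set was -0.55 in Hep3B-C beside -0.60 over all genes, and -0.57 in Huh7-C beside 0.06 over all genes. No gene of the set was called alike in both HCSC lines. Of 13917 shared genes, 79 were up- and 208 down-regulated in both, and BDH1 was among the 74 that were up-regulated in Hep3B-C and down-regulated in Huh7-C.

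**Figure D3:**
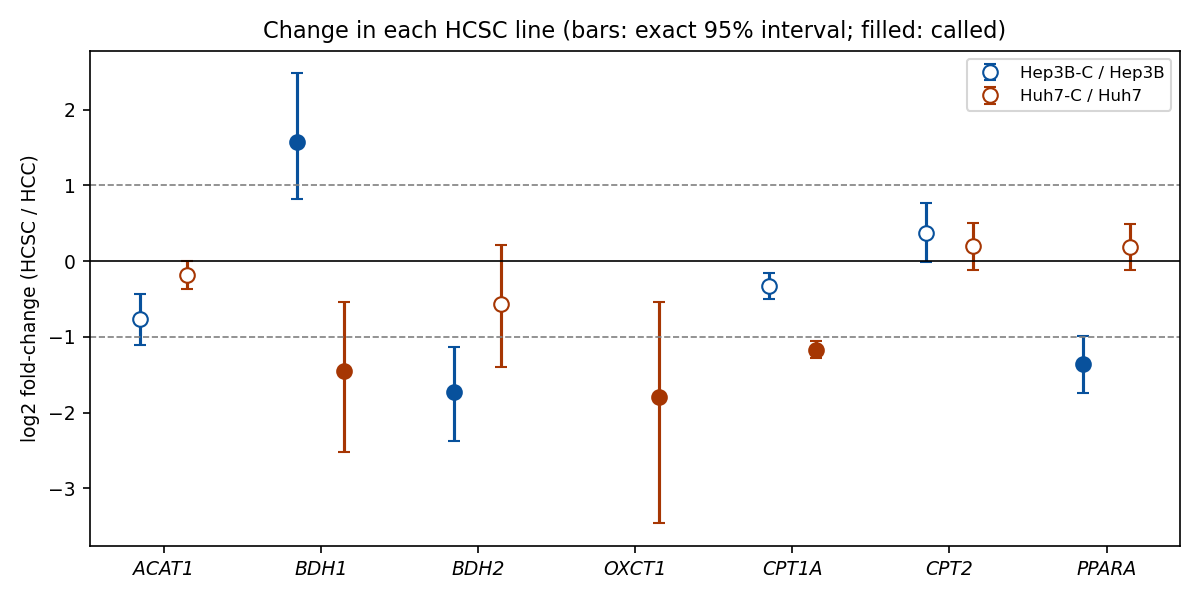
log2 fold-change (HCSC over HCC) of each gene in the Hep3B pair (blue) and the Huh7 pair (brown), with exact 95% intervals as bars, filled points for called genes and dashed lines at a log2 fold-change of 1 and -1. BDH1 lay at 1.57 for Hep3B-C and at -1.45 for Huh7-C, and CPT1A crossed the lower line in Huh7-C only.

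The change itself differed between the pairs for 4 of the 6 genes listed in both, at an FDR of at most 0.01 (Wald test), where 49.6% of all 13917 shared genes did. For BDH1 the log2 fold-change in the Hep3B pair exceeded that in the Huh7 pair by 3.02 (95% interval 1.84 to 4.19, FDR 1.70e-06). For CPT1A it did so by 0.83 (0.63 to 1.03, FDR 2.47e-15). For PPARA the difference was -1.55 (-2.01 to -1.08, FDR 3.29e-10) and for ACAT1 -0.58 (-0.95 to -0.21, FDR 0.00491). BDH2 (-1.16, FDR 0.0302) and CPT2 (0.17, 95% interval -0.31 to 0.65, FDR 0.576) did not pass.

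Between the parental lines 3 of the 6 genes were called, a share near that of all shared genes (45.7%, with 17.5% up- and 28.3% down-regulated in Huh7). CPT1A was 2.98-fold higher in Huh7 (log2 fold-change 1.57, SE 0.07, FDR 2.78e-131) and ACAT1 2.11-fold higher (1.08, SE 0.13, FDR 2.00e-17). BDH2 stood at 0.326 of its Hep3B level (log2 fold-change -1.62, SE 0.29, FDR 2.86e-08). BDH1, CPT2 and PPARA were not called. These values rest on library totals, and were not recomputed with TMM library sizes or with GC content and length trends removed. The TMM factor was 1.20 for Hep3B and 0.967 for Huh7.

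Changes in the Hep3B pair were ordered by the GC content and length of the genes. Across 11338 genes with at least 20 counts, the log2 fold-change in Hep3B-C rose with GC content (Spearman rho 0.63) and fell with gene length (rho -0.43), while in the Huh7 pair (11060 genes) the values were -0.06 and 0.32. These are correlations across genes of 1 pair of libraries, and genes are not independent replicates. Of the 6 genes, BDH2 had the lowest GC content (40.5%) and BDH1 the highest (56.2%). Genes of the GC content and length of PPARA, the longest of the set at 10049 bases, had a fitted log2 fold-change of -1.67 in Hep3B-C, those like BDH2 -1.42 and those like ACAT1 -1.02. With both trends removed, BDH1 kept a call in Hep3B-C (1.46), BDH2 stood at -0.31, PPARA at 0.32 and CPT1A at 0.50. Of all genes 23.2% were then called in Hep3B-C and 7.06% in Huh7-C. The same 3 calls held in Huh7-C with both trends removed, at -1.33 for CPT1A, -1.48 for BDH1 and -1.89 for OXCT1.

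**Figure D4:**
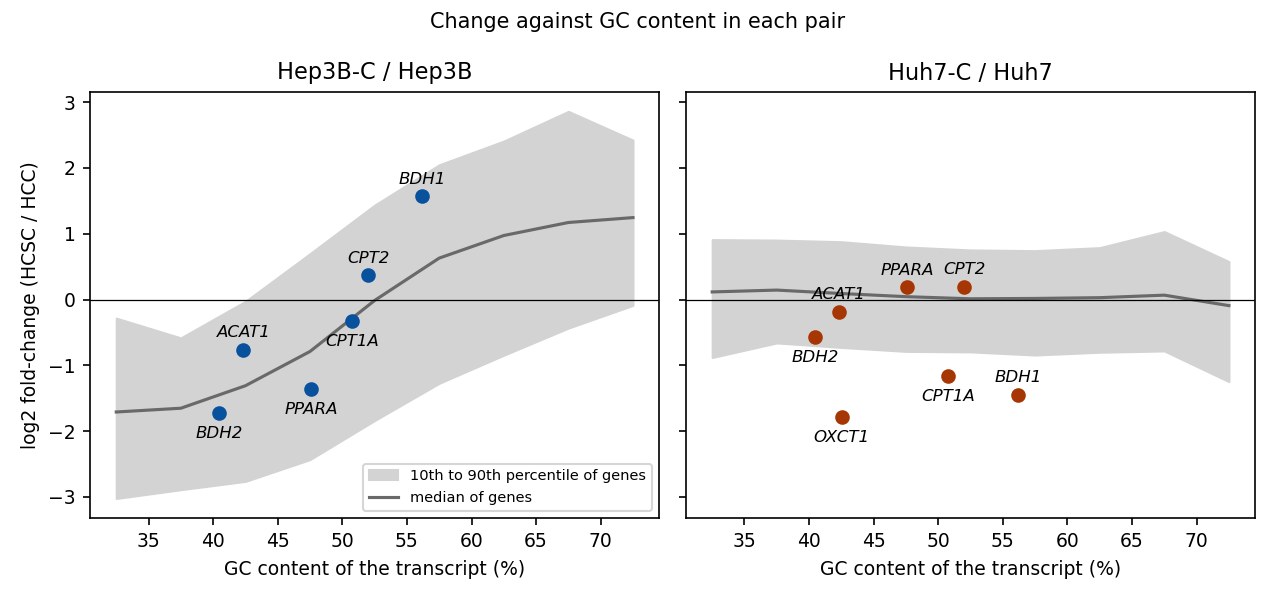
log2 fold-change of the genes against the GC content of their transcripts in the Hep3B pair (left) and the Huh7 pair (right), over the median (line) and the 10th to 90th percentile (grey band) of all genes in steps of 5% GC. In the Hep3B pair the median rose from -1.65 at 35 to 40% GC to 1.17 at 65 to 70% GC, and in the Huh7 pair it went from 0.14 to 0.07 over the same steps.

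HCSC and HCC samples were also compared over both parental lines with edgeR, which asks whether a change exceeds its variation between the lines. None of the 6 genes that passed the filter was called, where 0.0171% of 11691 genes were called up- and 0.00855% down-regulated. None had an unadjusted p under 0.05 in edgeR or in DESeq2, where 3.18% of genes did in edgeR. The lowest p was that of BDH2 (log2 fold-change -0.997, unadjusted p = 0.269, FDR 0.999 in edgeR). BDH1, with a log2 fold-change of 0.27, had an unadjusted p of 0.798 in edgeR. As group means, CPT1A stood at 341.4 ± 240.2 CPM in HCC cells and 181.8 ± 64.6 CPM in HCSCs (SD, n = 2), and BDH1 at 6.95 ± 2.02 and 9.90 ± 9.76 CPM (SD, n = 2).

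Other genes of ketone metabolism were described from a list of 8, of which 7 were listed in the Hep3B pair and 6 in the Huh7 pair. In Hep3B-C 3 were up- and 1 was down-regulated, and in Huh7-C 1 was up-regulated, where 13.2% of all genes were up- and 30.4% down-regulated in the former and 4.19% and 4.15% in the latter. The counts were the same with TMM library sizes. With both trends removed 4 were up- and 0 down-regulated in Hep3B-C, where 23.2% of all genes were called, and the Huh7-C count stayed at 1. HMGCS1, the cytosolic synthase that feeds sterol synthesis, rose in both HCSC lines, from 505 to 3024 counts in the Hep3B pair (log2 fold-change 1.90, SE 0.07) and from 369 to 1219 in the Huh7 pair (1.79, SE 0.09). ACAT2, the cytosolic thiolase that stands before it, went from 203 to 1541 counts in the Hep3B pair (2.24, SE 0.11) and from 757 to 1022 in the Huh7 pair (0.50, SE 0.07), where it was not called. The third gene up-regulated in Hep3B-C was AACS, a cytosolic enzyme that activates acetoacetate for lipid synthesis, with 79 and 324 counts (1.35, SE 0.18), named here after its values were seen. These 3 enzymes are cytosolic and belong to lipid synthesis rather than to mitochondrial ketone production. SLC16A7, a monocarboxylate transporter, had 54 counts in Hep3B and 30 in Hep3B-C (-1.52, SE 0.33), a call that was lost with both trends removed (-0.04), and had no row in the Huh7 pair. SLC16A1, of the same family and named after its values were seen, stood at 0.16 in Hep3B-C and at 1.72 with both trends removed. In Huh7-C it stood at 0.39 and was not called.

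For fatty acid uptake, activation and the carnitine shuttle, 4 of 18 listed genes were up- and 3 down-regulated in Hep3B-C, and 2 of 19 were up- and 4 down-regulated in Huh7-C. With TMM library sizes, and likewise with both trends removed, the Hep3B-C counts were 6 up- and 1 down-regulated, and with both trends removed the Huh7-C counts were 1 and 3. Over all genes the shares were 13.2% up and 30.4% down in Hep3B-C, against 4.19% and 4.15% in Huh7-C. ACSL4, an acyl-CoA synthetase that prefers arachidonate, fell in both, from 3370 to 2061 counts in the Hep3B pair (log2 fold-change -1.39, SE 0.04) and from 1336 to 484 in the Huh7 pair (-1.40, SE 0.08), and in the Hep3B pair it stood at -0.91 with TMM and 0.61 with both trends removed. In Hep3B-C the fatty acid transport protein SLC27A4 rose from 34 to 430 counts (2.96, SE 0.26) and the carnitine acetyltransferase CRAT from 68 to 453 (2.05, SE 0.19), while the acyl-CoA synthetase ACSL3 fell from 1472 to 868 (-1.44, SE 0.06; 0.16 with both trends removed). In Huh7-C the fatty acid transporter CD36 rose from 8 to 273 counts (5.07, SE 0.50). ACACA, whose product malonyl-CoA inhibits CPT1A, went from 388 to 937 counts there (1.34, SE 0.09, not called at 0.82 with both trends removed). In the Hep3B pair ACACA also rose, from 362 to 1074 counts (0.89, SE 0.09), short of the fold threshold. It stood in that pair at 1.37 with TMM and 2.47 with both trends removed.

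Other parts of the carnitine shuttle were named after their values were seen. SLC25A20, the carrier that brings the carnitine ester across the inner membrane between CPT1A and CPT2, had 139 counts in Huh7 and fell to 56 in Huh7-C (a log2 fold-change of -1.24, SE 0.23, FDR 1.03e-07), and had 35 and 48 counts in the Hep3B pair (-0.23, SE 0.32, FDR 0.541). MLYCD, which degrades malonyl-CoA, had 87 counts in Huh7 and 39 in Huh7-C (-1.08, SE 0.28), a call that was lost with both trends removed (-0.94). The acyl-CoA synthetase ACSL5 fell in Huh7-C from 984 to 461 counts (-1.03, SE 0.08). CPT1B, the muscle form of CPT1, had 12 counts in Hep3B and 0 in Hep3B-C, at least 6.41-fold lower when set against 3 counts, and 0 and 2 counts in the Huh7 pair. CPT1C, the form of neurons, was listed with 1 count for Huh7, with 0 for Huh7-C, and with no row in the Hep3B pair.

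Of 16 genes of mitochondrial beta-oxidation, 5 were up- and 2 down-regulated in Hep3B-C (all genes 13.2% and 30.4%) and none was called in Huh7-C by the Audic-Claverie test or with TMM library sizes. In Huh7-C 2 of the 16 were higher and 7 lower at an FDR of at most 0.01 without reaching the fold threshold. With TMM the Hep3B-C counts were 8 up- and 0 down-regulated, and with both trends removed 6 and 0. Their median log2 fold-change was 0.65 in Hep3B-C beside -0.60 over all genes, and -0.35 in Huh7-C beside 0.06, where 3 of 16 lay above 0. In Hep3B-C the short-chain acyl-CoA dehydrogenase ACADS rose from 15 to 154 counts (2.64 on the log2 scale, SE 0.38). The enoyl-CoA isomerase ECI1 rose from 44 to 343 counts (2.27, SE 0.23), and ETFB, a subunit of the electron transfer flavoprotein, rose from 151 to 858 (1.82, SE 0.13). With both trends removed ACADS stood at 1.40, ECI1 at 1.12 and ETFB at 0.43, and the median of the list was 0.98 beside 0.05 over all genes.

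**Figure D5:**
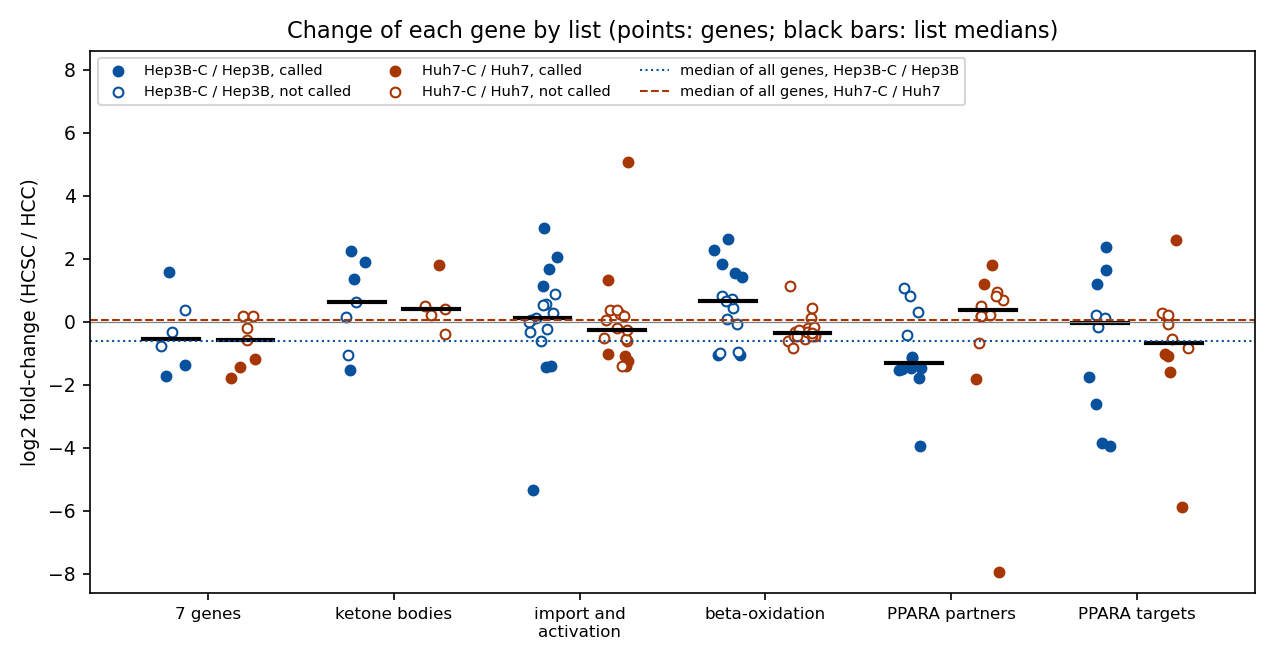
log2 fold-change (HCSC over HCC) of each gene with at least 10 counts in its pair, by gene list, in the Hep3B pair (blue) and the Huh7 pair (brown), with called genes filled and list medians as black bars. Genes at 0 counts in a library are drawn at the fitted value with 0.5 counts added. The beta-oxidation median lay at 0.65 for Hep3B-C and -0.35 for Huh7-C, and the median of the PPARA partners at -1.30 and 0.36.

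Among 12 partners and coregulators of PPARA, 8 were down-regulated in Hep3B-C and none up-regulated, while 2 were up- and 2 down-regulated in Huh7-C. The shares over all genes were 30.4% down and 13.2% up in Hep3B-C, against 4.15% and 4.19% in Huh7-C. The median log2 fold-change of the list was -1.30 in Hep3B-C beside -0.60 over all genes, and 0.36 beside 0.06 in the Huh7 pair. In Hep3B-C 1 was up- and 4 were down-regulated with TMM library sizes, and 2 were down-regulated with both trends removed. PPARGC1A, a coactivator of PPARA in fasting liver, fell in both HCSC lines. It had 109 counts in Hep3B and 11 in Hep3B-C, a log2 fold-change of -3.93 (SE 0.45), and 127 in Huh7 and 0 in Huh7-C, at least 40.4-fold lower when set against 3 counts. CREB3L3, a liver transcription factor that acts with PPARA, went from 424 to 247 counts in the Hep3B pair (-1.46, SE 0.12) and from 1376 to 373 in the Huh7 pair (-1.82, SE 0.08). The nuclear receptor coactivator NCOA1 had 92 counts in Hep3B and 43 in Hep3B-C (-1.77, SE 0.27, down-regulated) and had 156 and 170 in the Huh7 pair (0.19, SE 0.16). The acetyltransferase EP300 was called down-regulated in Hep3B-C, with 831 and 458 counts (-1.54, SE 0.08), and up-regulated in Huh7-C, with 344 and 756 (1.20, SE 0.09). Neither call of EP300 held with both trends removed (-0.51 in Hep3B-C and 0.81 in Huh7-C). With both trends removed NCOA1 stood at 0.06 in Hep3B-C, CREB3L3 at -2.14 and PPARGC1A at -1.95, and with TMM CREB3L3 stood there at -0.98.

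Of 12 other genes known as PPARA targets, 3 were up- and 4 down-regulated in Hep3B-C, and of the 10 in the Huh7 pair 1 was up- and 4 were down-regulated. All genes gave 13.2% up and 30.4% down in Hep3B-C, against 4.19% and 4.15% in Huh7-C. With both trends removed 2 in place of 4 were down-regulated in Hep3B-C, and 3 in place of 4 in Huh7-C. PLIN2, a lipid droplet coat protein, fell from 4951 to 2354 counts in the Hep3B pair (log2 fold-change -1.75, SE 0.04) and from 877 to 279 in the Huh7 pair (-1.58, SE 0.10). ANGPTL4, an inhibitor of lipoprotein lipase, went from 13 counts to 1 in the Hep3B pair (-3.85, SE 1.24) and from 396 to 176 in the Huh7 pair (-1.10, SE 0.13). VNN1, a pantetheinase, went from 9 to 2 counts in the Hep3B pair (-2.61, SE 1.03, not called at -0.94 with both trends removed) and from 30 to 0 in the Huh7 pair, at least 9.55-fold lower when set against 3 counts. The peroxisomal thiolase ACAA1 had 99 and 366 counts in the Hep3B pair (1.20, SE 0.16, up-regulated) and 723 and 343 in the Huh7 pair (-1.01, SE 0.09, down-regulated), and both calls were lost with both trends removed (0.32 and -0.87). PDK4, a kinase that restrains pyruvate dehydrogenase, rose in Huh7-C from 14 to 83 counts (2.59, SE 0.41). In the Hep3B pair PDK4 went from 14 counts to 1 and was down-regulated (-3.95, SE 1.24, at -2.30 with both trends removed). The acyl-CoA thioesterase ACOT2 had 17 counts in Hep3B and 88 in Hep3B-C (1.66, SE 0.38, not called at 0.85 with both trends removed). ACOT2 is nearly identical to ACOT1, so reads of these 2 genes may have been split or shared between them.

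Markers of other cell types stood beside these changes. Of the hepatocyte markers 6 were up- and 3 down-regulated in Hep3B-C, and 1 was up- and 4 were down-regulated in Huh7-C. The summed stromal markers went from 14.5 to 10.8 CPM in the Hep3B pair and from 45.2 to 15.5 CPM in the Huh7 pair, with COL3A1 at 0 and 58 counts and PDGFRB at 186 and 2 counts in Huh7 and Huh7-C. The endothelial sum was 3.11 and 2.80 CPM in the Hep3B pair and 3.75 and 21.5 CPM in the Huh7 pair, all of it from PECAM1 in the latter. The leukocyte sum, nearly all from CD68, was 101.2 and 271.4 CPM in the Hep3B pair and 134.4 and 100.1 CPM in the Huh7 pair, and the 3 cholangiocyte markers summed to 280.3 and 94.6 CPM in the Hep3B pair and 58.8 and 91.1 CPM in the Huh7 pair. All libraries were made from cultures of hepatoma lines, so these counts do not show that other cell types were present. The part of the markers in the changes of the 7 genes was not tested. In bulk RNA, fewer cells with a transcript cannot be told apart from less of it per cell.

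The genes nearest in pattern were found over the 4 libraries, by the distance between log2(CPM + 1) profiles centred on their own mean, among 7725 genes that reached 50 counts in a library of both pairs. BDH1 was followed most closely by GOLT1A (distance 0.265) and SLC2A6 (0.299), and both were highest in Hep3B-C and lowest in Huh7-C as BDH1 was. The nearest genes were DSTN and ATP5J for CPT1A, OLA1 and LIMD1 for ACAT1, SYF2 and BCL7A for BDH2, TFIP11 and RPL4 for CPT2, and MOBKL2A and IRF2BPL for PPARA. For OXCT1, with 23 and 6 counts in the Huh7 pair and the Hep3B pair taken as 0, they were AS3MT and ATP6V0E1. These distances describe 4 libraries and carry no test.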

How the data were processed

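RNA of 4 hepatoma cultures, 1 library each, was read on an Illumina Genome Analyzer II instrument. The authors filtered adapters and low-quality reads, aligned the rest to NCBI Build 36.1 with NextGENe and deposited raw read counts for each gene. The version, the annotation, strand and the handling of reads with several matches were not given in the sources used here, so reads of close paralogs may be split. CPM, RPKM and log2 fold-changes (0.5 added to each count) were computed from these counts. HCSC and parental libraries of a pair were compared by the Audic-Claverie test (tail doubled), the kind of Poisson test the study used, with Benjamini-Hochberg adjustment over all genes of the pair, and a call needed an FDR no higher than 0.01 and a log2 fold-change of 1 or more in either direction. Standard errors are those of Poisson counts, and intervals (95%, exact) cover counting error only, as reads without molecular identifiers are not independent molecules. The difference between pairs was tested by a Wald test over 13917 genes.

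All 4 samples were fitted with edgeR 4.0.16 (quasi-likelihood, TMM, filterByExpr), blocking on the parental line, with 1 residual degree of freedom. In fits over all samples, and for TMM and DESeq2 library sizes, a gene with no row in a pair was taken as absent, with no counts there. The 2 libraries of a parental line share that line, and their deviations from the group means correlated across 11691 genes (r = 0.584). The alternatives tried were library sizes from TMM or from DESeq2 1.42.0, 5 counts added, trends with GC content and length removed by spline regression, an exact binomial test, count filters and a preset biological coefficient of variation. Tests were first tried on simulated counts with less variation than these data. Those were Poisson counts for the Audic-Claverie test, and counts with a smaller coefficient of variation and larger changes for edgeR. The trials do not show how the tests perform on these data. GENCODE release 29 (GRCh38) gave gene positions and GC content, as annotation only, and promoters from RefSeq (GRCh38.p14). Named genes were the 7 genes, and, from each list, genes called alike in both pairs and the 3 largest called changes per pair with at least 50 counts in a library, and for each of the 7 the 2 genes nearest in pattern. The 7 genes and the lists were chosen with earlier results of these data known, and some genes of the ketone pathway are not reported here. Software was Python 3.11.15 and R 4.3.3.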

Additional observations from a re-analysis of the deposited data

Results flagged for a closer look

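The log2 fold-change differed between the Hep3B and Huh7 pairs, by the Wald test at an FDR of at most 0.01, for 4 genes. The difference (Hep3B pair minus Huh7 pair) was 3.02 for BDH1, which was up-regulated in Hep3B-C and down-regulated in Huh7-C, and 0.83 for CPT1A, which was called in Huh7-C only. It was -1.55 for PPARA, which was called in Hep3B-C only, and -0.58 for ACAT1, which was called in neither. With TMM library sizes the values were 3.54, 1.36, -1.02 and -0.06 in the same order, and with both trends removed they were 2.94, 1.83, 0.62 and 0.36. The difference of BDH1 and that of CPT1A passed under both alternatives (FDR 1.55e-08 and 5.82e-39 with TMM, 5.77e-06 and 8.77e-70 with trends removed). That of PPARA passed with TMM (FDR 4.92e-05) but not with trends removed (FDR 0.024), and that of ACAT1 passed under neither (FDR 0.828 and 0.127). CPT2 passed with TMM alone (0.70, FDR 0.00988). Each pair was 1 library against 1 library, so these tests cover counting error only.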

How the results depend on the processing

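With GC content and length trends removed, 1 gene of the set was called in Hep3B-C in place of 3, and the change differed between the pairs for 2 genes in place of 4. With a preset biological coefficient of variation of 0.4, no gene was called in Hep3B-C (0) or in Huh7-C (0). In the other alternatives 2 or 3 genes were called in Hep3B-C and 3 in Huh7-C. Over 65 recomputed log2 fold-changes of single genes, 53 kept their direction and their side of the thresholds, 9 changed sign and 3 kept their sign and lost a call. In all 5 values lost a call, 2 of them with a change of sign. In the Hep3B pair ACAT1 turned to 0.25 with both trends removed, and CPT1A to 0.50 with both removed, 0.84 with the length trend removed, 0.15 with TMM and 0.20 with DESeq2 size factors. PPARA there turned to 0.32 and 0.39 with both trends and with the length trend removed, and was no longer called at -0.87 with TMM and -0.83 with DESeq2 size factors, and BDH2 was not called at -0.31 with both trends removed. In the Huh7 pair PPARA turned to -0.31 and -0.32 with both trends and with the length trend removed. The causes of the trends were not tested. The recounts of the other gene lists and the ratios of genes with trends removed were chosen after seeing the data.

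Without the replicate block (the parental line) the edgeR fit also called 0 genes of the set, and the biological coefficient of variation rose from 0.514 to 0.754. DESeq2 size factors, no count filter and DESeq2 gave 0 as well. Without the filter and in DESeq2, OXCT1 was included, taken as 0 counts in the Hep3B pair. Leaving out each library in turn, with the block kept, left no residual degrees of freedom, so these are values with no test. Each value is the change within the pair that stayed whole. They therefore do not measure how far a single library moves a result. With the Hep3B pair whole, BDH1 stood at 1.99, BDH2 at -1.35, CPT1A at 0.06, CPT2 at 0.76, ACAT1 at -0.38 and PPARA at -0.97. With the Huh7 pair whole, they stood at -1.52, -0.63, -1.22, 0.15, -0.24 and 0.14 in the same order. BDH1, with 13 to 78 counts, and OXCT1, with 6 and 23, had the fewest counts and the widest intervals.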
